A study of Arabidopsis thaliana with 6 samples.

Results

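The 8 genes described here encode the regulators at the centre of phosphate signalling in Arabidopsis thaliana. They are the SPX proteins SPX1 (AT5G20150), SPX2 (AT2G26660), SPX3 (AT2G45130) and SPX4 (AT5G15330), the transcription factors PHR1 (AT4G28610) and PHL1 (AT5G29000), and the ubiquitin enzymes PHO2 (AT2G33770) and NLA (AT1G02860). They were taken by gene identifier from a count table of 24267 genes, and all 8 had enough counts in every library to be tested. RNA was sequenced from wild-type seedlings of the Columbia accession that had been moved at 4 days of age from plates of Murashige and Skoog medium to fresh plates of it. For 72 h the plates held 0.1% ethanol as the solvent control, 1 nM of the auxin IAA (indole-3-acetic acid), or 10 nM of melatonin (MT), which like IAA is an indole made from tryptophan by plants. In the titles the solvent control is described as untreated. Each group had 2 libraries, so all groups share the genotype, the medium and the time. No phosphate treatment is described in the labels, and the complete medium supplies phosphate to every group.

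PHR1 and PHL1 are related MYB factors that bind a short sequence called P1BS, the PHR1 binding sequence, in the promoters of genes switched on when phosphate runs short. SPX proteins bind inositol pyrophosphates, which signal phosphate supply, and in that state hold PHR1 away from DNA, while SPX1 and SPX3 are themselves known as genes that PHR1 switches on. PHO2, a ubiquitin-conjugating enzyme, and NLA, a RING ubiquitin ligase with an SPX domain of its own, mark phosphate transporters for breakdown. The microRNA miR399 cuts the PHO2 transcript, miR827 cuts the NLA transcript, and the noncoding RNAs IPS1 and AT4 sequester miR399 by mimicking its target.

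Sequences that connect these 8 genes to each other were read from the RefSeq TAIR10.1 genome at the gene starts of its annotation. The build behind the deposited counts is not given in the sources used here. P1BS was searched as GNATATNC, which is its own reverse complement, so that a match on one strand is a match on both. SPX3 was the gene with 2 matches close to its start, 213 and 90 bases upstream. Its 250 bases upstream of the start, chr2:18606160-18606409 on the plus strand, are shown with the matches in capitals.
SPX3: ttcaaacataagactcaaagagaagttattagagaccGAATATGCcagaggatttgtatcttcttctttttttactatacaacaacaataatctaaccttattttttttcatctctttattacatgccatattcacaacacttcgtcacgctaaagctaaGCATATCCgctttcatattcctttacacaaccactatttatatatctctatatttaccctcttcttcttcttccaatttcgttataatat

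Within 300 bases upstream, 2 of the 8 genes (25.0%), SPX3 and NLA, held a match, against 6.5% of 27444 protein-coding genes. Within 1000 bases it was 6 of 8 (75.0%), against 20.3%. The single matches lay 735 bases upstream of SPX1, 338 of SPX4, 795 of PHL1, 526 of PHO2 and 253 of NLA, and these letters do not occur in the 1000 bases upstream of SPX2 and PHR1. For comparison the 40 bases around each single match are given 5′ to 3′ on the strand of the gene, with the match in capitals, in TAIR10.1 coordinates. They are chr5:6801531-6801570 (plus strand) for SPX1, chr5:4980020-4980059 (plus) for SPX4, chr5:11025750-11025789 (minus) for PHL1, chr2:14283616-14283655 (minus) for PHO2 and chr1:634875-634914 (plus) for NLA. The 4 bases at the centre are ATAT in every one, between an outer G and C, as the searched letters require, and only the 2 free positions beside ATAT differ between genes.
SPX1: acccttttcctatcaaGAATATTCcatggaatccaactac
SPX4: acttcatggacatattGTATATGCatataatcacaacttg
PHL1: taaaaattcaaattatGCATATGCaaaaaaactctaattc
PHO2: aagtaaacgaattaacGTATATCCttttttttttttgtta
NLA: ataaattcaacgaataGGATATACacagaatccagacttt

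The microRNAs of the pathway are shown with their seed, bases 2 to 8, in capitals. All miR399 forms share 1 seed and differ only after it, whereas the seed of miR827 is unrelated to it in sequence.
miR399a: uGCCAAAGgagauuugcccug
miR399b and miR399c: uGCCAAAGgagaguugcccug
miR399d: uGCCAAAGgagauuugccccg
miR399e: uGCCAAAGgagauuugccucg
miR399f: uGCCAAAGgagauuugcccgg
miR827: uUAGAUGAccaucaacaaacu

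The 5′ UTR of PHO2 held 5 sites with at most 2 bases unpaired to a miR399 form, starting at bases 680, 813, 902, 959 and 1016 of a transcript of 4176 bases. Of 27444 transcripts searched, PHO2 was the 1 with such a site. The 5′ UTR of NLA held 1 site for miR827 with 1 base unpaired, starting at base 258 of a transcript of 1517 bases, and NLA was likewise the 1 transcript of 27444 at that limit. The sites are printed 5′ to 3′ with the bases that do not form a Watson-Crick pair in capitals. The PHO2 sites are on the minus strand at chr2:14282106-14282126, chr2:14281973-14281993, chr2:14281884-14281904, chr2:14281827-14281847 and chr2:14281770-14281790, and the NLA site is on the plus strand at chr1:635401-635421.
PHO2 site at 680: UagggcaaaucuUcuuuggca
PHO2 site at 813: UagggcaUaucuccuuuggca
PHO2 site at 902: UUgggcaaaucuccuuuggca
PHO2 site at 959: UcgAgcaaaucuccuuuggca
PHO2 site at 1016: UagAgcaaaucuccuuuggca
NLA site at 258: Uguuuguugauggucaucuaa

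**Figure D1:**
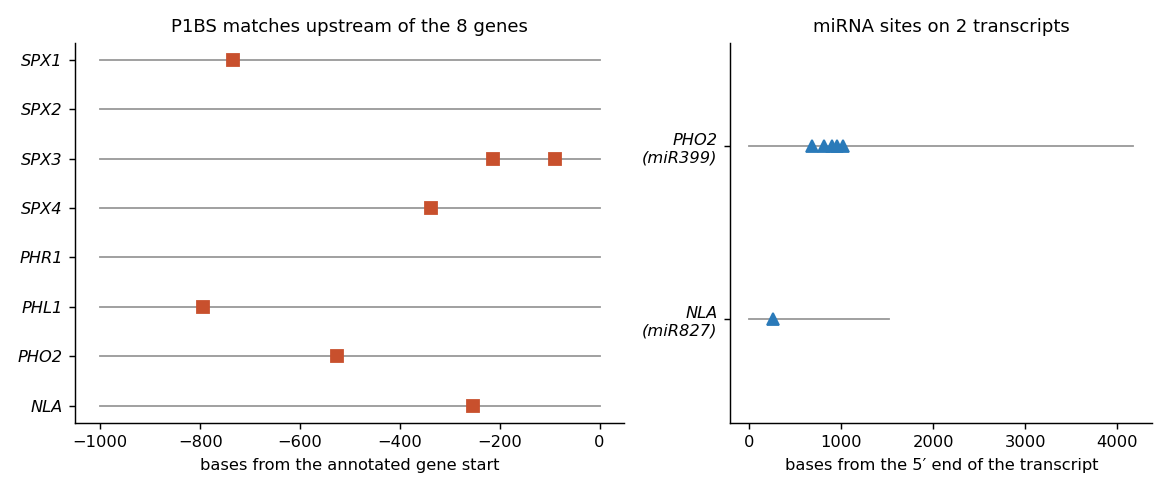
Left, positions of P1BS matches (squares) in the 1000 bases upstream of each of the 8 genes, in bases from the annotated start. Right, positions of microRNA sites (triangles) along the PHO2 and NLA transcripts in bases from the 5′ end, with 5 miR399 sites on PHO2 and 1 miR827 site on NLA.

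Library totals were 35953236 to 46076624 counts, and levels are given as CPM, the gene's count scaled to a common library size, with TMM factors. Within each group the 2 libraries differed by more than counting error, at 25.6 to 32.8 for chi-square per degree of freedom. Whether they came from separate cultures is not stated, so the p-values reflect only library-to-library spread, which may be technical. Changes are log2 fold changes ± SE from edgeR's quasi-likelihood test, and a gene is called at a Benjamini-Hochberg adjusted p under 0.05 over 21355 genes. The labels describe seedlings and the design text of the series rosette leaves. All 5 root hair, 5 endodermis, 4 root stem cell and stele and 5 green tissue markers had counts in every library. The IAA and MT comparisons share the control libraries and are therefore not independent of each other.

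With IAA, 2 of the 8 genes rose, SPX1 and SPX3, and 0 fell, where 0.332% of all genes were called (0.272% higher and 0.0609% lower). With MT, 4 of the 8 rose, SPX1, SPX2, SPX3 and PHO2, and PHL1 and NLA fell, where 7.65% of all genes were called (3.99% higher and 3.65% lower). SPX4 and PHR1 were called in neither comparison. DESeq2 called 4 of the 8 with IAA, adding SPX2 and NLA, where it called 4.09% of genes, and 6 of 8 with MT, where it called 14.2%. At an unadjusted p under 0.05 there were 5 of 8 with IAA, against 14.3% of all genes, and 6 of 8 with MT, against 25.2%. In RNA from whole seedlings, a change in the number of cells that express a gene and a change in RNA per cell cannot be told apart.

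SPX1, whose protein is a nuclear inhibitor of PHR1, stood at 22.1 and 23.5 CPM in the control, at 87.6 and 109 after IAA, and at 139 and 134 after MT. All libraries of the treated groups lay far above the control, and those with MT lay above those with IAA. The increase was 2.11 ± 0.12 with IAA (4.31-fold, adjusted p = 0.00356) and 2.58 ± 0.12 with MT (5.99-fold, adjusted p = 0.00151). By its p-value SPX1 ranked 3 of 21355 genes with IAA and 2 with MT.

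SPX3, a second inducible SPX protein and the gene with both P1BS matches close to its start, had 1.65 and 3.08 CPM in the control, from 59 and 115 counts. It had 13.4 and 18.6 CPM with IAA and 24.4 and 19.0 with MT. In proportion to their level the control libraries differed more than the libraries of any group did for the other 7 genes, and both treated groups lay well above them. The increase was 2.76 ± 0.32 with IAA (6.75-fold, adjusted p = 0.035) and 3.19 ± 0.32 with MT (9.16-fold, adjusted p = 0.00468). The fold was the largest among the 8 genes in both comparisons and ranked 42 and 52 of 21355, but its SE was also the widest. The call with IAA was lost without control replicate 1 (2.38, adjusted p = 0.074), IAA replicate 1 (2.98, adjusted p = 0.0763) or IAA replicate 2 (2.51, adjusted p = 0.12).

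SPX2, the closest relative of SPX1 and also an inhibitor of PHR1, stood at 18.9 and 18.5 CPM in the control, 26.9 and 30.2 with IAA, and 37.7 and 35.3 with MT. The 3 groups did not overlap and lay in the order control, IAA, MT. SPX2 rose with MT by 0.97 ± 0.10 (1.95-fold, adjusted p = 0.00458). With IAA the difference of 0.61 ± 0.10 (95% interval 0.39 to 0.84) missed the threshold, with an adjusted p of 0.0699. DESeq2 called it (adjusted p = 0.000268), as did edgeR with robust empirical Bayes (adjusted p = 0.0416).

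SPX4, an SPX protein that likewise restrains PHR1 and that, unlike SPX1 and SPX3, is not known as a gene induced by phosphate shortage, had 12.1 and 13.6 CPM in the control. It had 11.9 and 9.44 CPM with IAA and 12.8 and 11.4 with MT. The IAA libraries lay just below the control, and the MT libraries overlapped those of both other groups. Its differences were -0.27 ± 0.16 with IAA (95% interval -0.65 to 0.11, adjusted p = 0.495) and -0.09 ± 0.16 with MT (-0.46 to 0.29, adjusted p = 0.782). These intervals lie below the changes of SPX1, SPX2 and SPX3 with MT, but differences between genes were not tested.

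**Figure D2:**
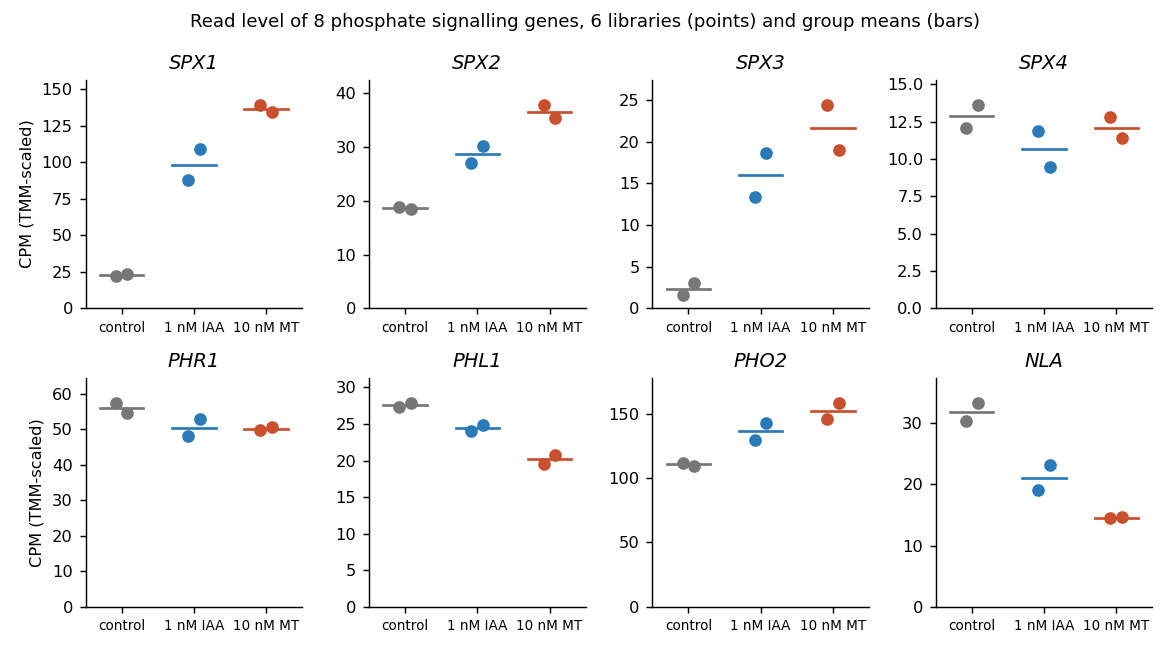
CPM of each of the 8 genes in the control, 1 nM IAA and 10 nM MT libraries, with 1 point a library, group means as bars and every axis starting at 0. SPX1 ranges from 22.1 to 139 CPM and SPX3 from 1.65 to 24.4, whereas PHR1 stays between 48.0 and 57.2.

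PHR1, the main activator of the phosphate starvation response, had 57.2 and 54.6 CPM in the control, 48.0 and 52.7 with IAA, and 49.7 and 50.5 with MT. Its libraries spanned the narrowest range of the 8 genes, with an SD of log2 CPM of 0.0931 over the 6 libraries. The differences from control were -0.15 ± 0.08 with IAA (95% interval -0.34 to 0.04, adjusted p = 0.443) and -0.16 ± 0.08 with MT (-0.34 to 0.03, adjusted p = 0.271). AT4G28600 overlaps PHR1 on the other strand, and whether reads were counted by strand is not given. AT4G28600 itself differed by -0.48 ± 0.16 with IAA (adjusted p = 0.263) and -0.33 ± 0.16 with MT (adjusted p = 0.243), not called in either.

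PHL1, the paralogue that shares part of the function of PHR1, had 27.3 and 27.8 CPM in the control, 24.0 and 24.9 with IAA, and 19.5 and 20.8 with MT. The 3 groups did not overlap and descended from control to IAA to MT. PHL1 fell by 0.45 ± 0.09 with MT (adjusted p = 0.0316), while the difference with IAA was -0.17 ± 0.09 (95% interval -0.39 to 0.04, adjusted p = 0.437). The MT call was lost in 8 of 13 alternative fits, among them each that left out 1 of the 6 libraries (adjusted p = 0.0617 to 0.126) and the fit of the 4 libraries compared (0.0626). Of 2185 words of 50 bases in the PHL1 transcript, 8 also occur in AT5G28040, so a small part of its reads could be shared, and the other 7 genes shared 0.

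PHO2, the ubiquitin-conjugating enzyme with the miR399 sites shown above, had 112 and 109.8 CPM in the control, 129.8 and 143 with IAA, and 146 and 158 with MT. Each treated group lay above the control, and MT above IAA. PHO2 rose with MT by 0.45 ± 0.09 (1.37-fold, adjusted p = 0.0283), and with IAA the difference was 0.30 ± 0.09 (95% interval 0.09 to 0.5, adjusted p = 0.228). The MT call was lost without either control library (adjusted p = 0.11 and 0.127) or either MT library (0.0525 and 0.076).

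NLA, the ubiquitin ligase with the miR827 site, moved the opposite way to PHO2, with 30.4 and 33.2 CPM in the control, 19.1 and 23.1 with IAA, and 14.5 and 14.6 with MT. The groups did not overlap, and the MT libraries agreed closely with each other. NLA fell by 1.13 ± 0.12 with MT to 0.457 of the control level (adjusted p = 0.00525), the call being kept in all 13 alternative fits. With IAA the difference was -0.59 ± 0.12 (95% interval -0.88 to -0.31, adjusted p = 0.132), called by DESeq2 (adjusted p = 0.00439). AT1G02870, which overlaps NLA on the other strand, differed by 0.24 ± 0.14 with IAA (adjusted p = 0.508) and 0.26 ± 0.14 with MT (adjusted p = 0.314), values opposite in sign to those of NLA. AT1G04147, which also overlaps it, was not analysed here.

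Between the treated groups directly, MT against IAA, edgeR called 0 of the 8 genes, where 0.173% of all genes were called. At an unadjusted p under 0.05 there were 4 of 8, where 17.4% of all genes passed, and DESeq2 called 2, SPX1 (adjusted p = 0.00686) and NLA (adjusted p = 0.0133), where it called 6.32% of genes. The differences were 0.47 ± 0.11 for SPX1 (95% interval 0.21 to 0.74, adjusted p = 0.124) and -0.54 ± 0.12 for NLA (-0.82 to -0.25, adjusted p = 0.123). For SPX2 it was 0.35 ± 0.09 (0.13 to 0.58, adjusted p = 0.152) and for PHL1 -0.28 ± 0.09 (-0.49 to -0.07, adjusted p = 0.198). The doses of IAA and MT differ, so these values set a 1 nM treatment beside a 10 nM one. For SPX3 the interval ran from -0.23 to 1.11 around 0.44 ± 0.28, for PHO2 from -0.05 to 0.36 around 0.16 ± 0.09, for SPX4 from -0.19 to 0.56 around 0.18 ± 0.16, and for PHR1 from -0.19 to 0.18 around -0.01 ± 0.08.

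The libraries of the groups compared did not overlap in 8 of 8 genes for IAA against control, 7 of 8 for MT against control and 6 of 8 for MT against IAA, where 48.4, 55.5 and 50.4% of all genes did not overlap. In SPX1, SPX2, SPX3 and PHO2 all 3 groups lay apart in the order control, IAA, MT, a pattern that 5.69% of all genes showed. In PHL1 and NLA they lay apart in the reverse order, as in 6.85% of all genes. A called gene with MT thus had its IAA libraries between those of control and MT in all 6 cases, including the 4 that were not called with IAA. The share of this order among all genes called with MT was not counted.

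**Figure D3:**
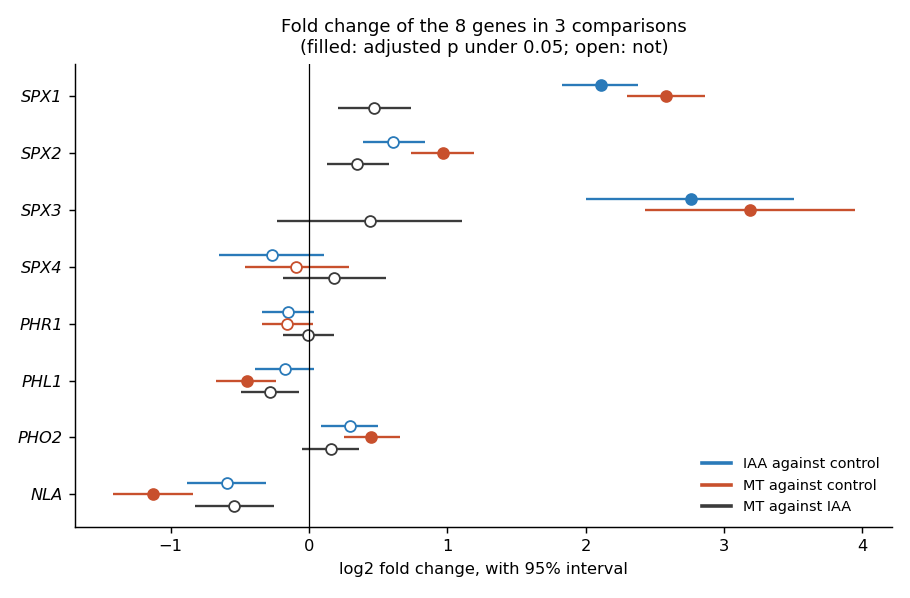
Log2 fold change of the 8 genes in IAA against control, MT against control and MT against IAA, with 95% intervals as lines, filled points called at an adjusted p under 0.05 and open points not. SPX1 and SPX3 lie at 2.11 and 2.76 with IAA, and NLA at -1.13 with MT, while every point of MT against IAA is open.

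Levels were compared between genes per kb of exon, using the TAIR10.1 exon lengths of 916 bases for SPX3 to 4176 bases for PHO2. In the control the order of mean CPM per kb was PHR1 (31.5), PHO2 (26.6), NLA (20.5), SPX1 (18.9), SPX2 (14.5), PHL1 (10.8), SPX4 (9.4) and SPX3 (2.58), and no neighbours overlapped. With IAA, SPX1 was highest at 81.4 CPM per kb, followed by PHO2 (32.7), PHR1 (28.4), SPX2 (22.1), SPX3 (17.5), NLA (13.6), PHL1 (9.55) and SPX4 (7.8), where SPX3 and NLA overlapped. With MT the order was SPX1 (113), PHO2 (36.4), PHR1 (28.3), SPX2 (28.3), SPX3 (23.7), NLA (9.39), SPX4 (8.86) and PHL1 (7.86). PHR1 overlapped SPX2 there, and NLA overlapped SPX4. The inhibitor SPX1 thus stood below its target PHR1 in transcript level per kb in the control and above it in both treated groups.

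The 4 SPX genes together had 43.6 and 47.1 CPM per kb in the control, 117 and 141 with IAA, and 180 and 168 with MT. SPX1 made up 42.0 and 41.4% of that sum in the control, 62.2 and 64.1% with IAA, and 63.8 and 66.3% with MT. The share of SPX3 went from 4.1 and 7.1% to 12.5 and 14.4% and 14.8 and 12.4%. SPX4 stood at 20.3 and 21.1%, 7.4 and 4.9%, and 5.2 and 5.0%, so that it made up a smaller part of a larger sum although its own level was not called. SPX2 likewise held a smaller share, 33.5 and 30.4% in the control, 17.9 and 16.6% with IAA, and 16.2 and 16.4% with MT, with a higher level of its own in every treated library.

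**Figure D4:**
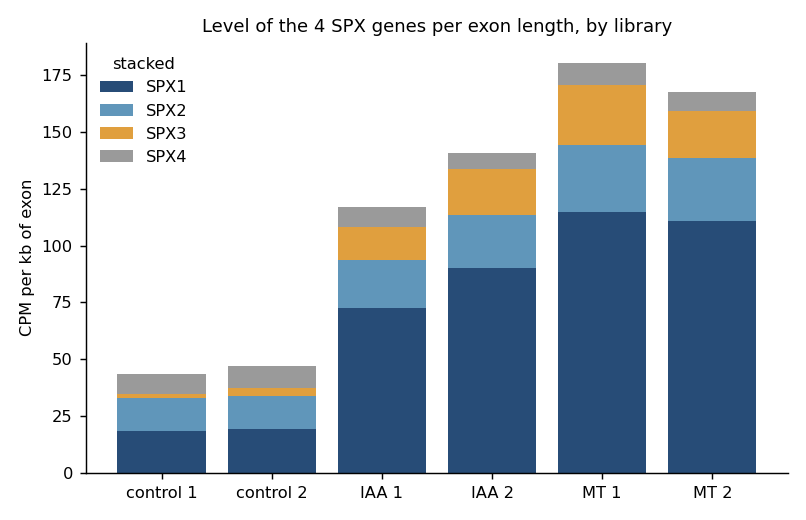
CPM per kb of exon of SPX1, SPX2, SPX3 and SPX4, stacked for each of the 6 libraries on an axis from 0. The sum is 43.6 to 47.1 in the control and 117 to 180 in the treated libraries, and the SPX1 part takes most of the difference.

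Other genes of the pathway were followed in 7 lists, of which 56 of 65 genes were tested. With IAA 13 of the 56 rose and 0 fell, where 0.272% of all genes rose. With MT 26 rose and 0 fell, where 3.99% of all genes rose. Of the 56, PHT1;2, PHT1;7, PHT1;8 and NLA2 had fewer than 10 counts in at least 1 control library and so passed the filter on low counts only with the treated libraries. Among the other 52, 13 rose with IAA and 25 with MT, a count added after the data were seen. Over all 56, median log2 fold changes were 0.44 with IAA and 0.70 with MT, where medians of all genes were 0.0 and 0.002. Over the 52 the medians were 0.4 with IAA and 0.7 with MT. In MT against IAA edgeR called 0 of 56, where it called 0.173% of all genes. At an unadjusted p under 0.05 there were 16, where 17.4% of all genes passed, and DESeq2 called 11, where it called 6.32%. The median there was 0.18 against -0.005 over all genes. The lists were chosen with results of these libraries known, and their counts are a description.

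Upstream of the SPX proteins, the other PHR family members PHL2, PHL3 and PHL4 gave 0 calls of 3 in either comparison (medians -0.13 with IAA and -0.10 with MT). The enzymes that make inositol pyrophosphates, VIH1, VIH2, ITPK1 and IPK1, gave 0 of 4 (medians 0.15 and 0.24). At an unadjusted p under 0.05 there were 1 of 3 and 1 of 4 with IAA, where 14.3% of all genes passed, and 1 of 3 and 3 of 4 with MT, where 25.2% passed. DESeq2 called 1 gene of each list with MT and 0 with IAA, where it called 14.2 and 4.09% of all genes.

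AT4, a noncoding RNA that sequesters miR399, had 73.0 and 57.7 CPM in the control, 138 and 159.6 with IAA, and 147 and 140.1 with MT. Both treated groups lay above the control and overlapped each other. AT4 rose by 1.19 ± 0.13 with IAA (adjusted p = 0.0315) and 1.13 ± 0.13 with MT (adjusted p = 0.00664). IPS1, its relative, had 7.32 and 10.6 CPM in the control, 23.8 and 27.9 with IAA, and 6.39 and 28.2 with MT. The MT libraries of IPS1 lay on either side of both control libraries. Its differences were 1.53 ± 0.59 with IAA (adjusted p = 0.32) and 0.95 ± 0.59 with MT (adjusted p = 0.364). No row of the count table carried a gene of miR399 or miR827, so their levels were not tested.

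The mimic sites of IPS1 and AT4 are shown beside the PHO2 sites above because they pair with miR399b except for a bulge of 3 bases near the centre and 3 other bases. They are printed with unpaired bases in capitals, from the plus strand at chr3:3051224-3051247 and chr5:895149-895172.
IPS1: UUgggcaacuUCUAuccuuuggca
AT4: UUgggcaacuUCGAuccuuuggca

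In the list built around the phosphate transporters that PHO2 and NLA act on, 3 of the 10 tested genes, PHT1;2, PHT1;7 and PHT1;8, passed the filter through treated libraries. Of the other 7, 1 rose with IAA and 5 with MT and 0 fell, with medians of 0.52 and 0.76 (1.06 and 1.51 over all 10). DESeq2 called 5 of the 10 with IAA and 6 with MT, where it called 4.09 and 14.2% of all genes. At an unadjusted p under 0.05 there were 10 and 9, where 14.3 and 25.2% of all genes passed. Both of these last counts include PHT1;2, PHT1;7 and PHT1;8, which passed the filter through treated libraries. PHT1;4, a high-affinity phosphate importer of the root surface, had 53.0 and 39.5 CPM in the control, 95.9 and 96.3 with IAA, and 114 and 109 with MT. It was the gene called in both, at 1.06 ± 0.13 (adjusted p = 0.0414) and 1.27 ± 0.13 (adjusted p = 0.00507). With MT, PHT1;5 (1.87 ± 0.30, adjusted p = 0.0169) and PHT1;9 (1.75 ± 0.37, adjusted p = 0.0385), further transporters of the family, also rose. So did PHF1, which helps the importers leave the endoplasmic reticulum (0.76 ± 0.12, adjusted p = 0.0161), and PHO1;H1, a phosphate exporter (0.70 ± 0.14, adjusted p = 0.0347). PHT1;7 had 0 counts in each control library, 17 and 25 after IAA, and 19 and 28 after MT. Set against a floor of 3 counts over the control group, it was at least 15.3-fold higher with MT and at least 11.1-fold higher with IAA. Because it could pass the filter only through the treated groups, its call with MT is not counted among the 5.

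The vacuolar transporters with SPX domains gave 0 calls of 2 tested in both comparisons (medians 0.09 and 0.33). At an unadjusted p under 0.05 there were 0 with IAA and 2 with MT, where 14.3 and 25.2% of all genes passed. DESeq2 called 0 and 1, where it called 4.09 and 14.2% of all genes. PHT5;1 of that list carries the other miR827 site found, with 3 unpaired bases, at a limit that 2 transcripts of 27444 met.

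Of 18 other regulators of phosphate responses, edgeR and DESeq2 called 0 with IAA. At an unadjusted p under 0.05 there were 2 with IAA, where 14.3% of all genes passed, and 4 with MT, where 25.2% passed. With MT 4 of 18 rose by either tool, where edgeR found 3.99% of all genes higher and DESeq2 called 14.2% in either direction. HHO2 and HHO3, repressors of the HRS1 family, went from 38.5 and 40.0 to 75.1 and 68.1 CPM and from 95.6 and 104 to 182 and 142 CPM. Their changes were 0.87 ± 0.08 (adjusted p = 0.00414) and 0.70 ± 0.12 (adjusted p = 0.0232). The zinc-finger factor ZAT6 rose by 1.42 ± 0.23 (adjusted p = 0.0171) and the MYB factor MYB62 by 1.28 ± 0.26 (adjusted p = 0.0339). With IAA the 4 genes had 48.5 to 49.1 CPM for HHO2, 111 to 115 for HHO3, 6.34 to 7.46 for ZAT6 and 2.04 to 2.14 for MYB62.

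The 17 genes listed as output of PHR1, most of which scavenge phosphate or replace phospholipids, held most of the calls, with 11 that rose with IAA and 15 with MT and 0 that fell (medians 1.12 and 1.39), where 0.272 and 3.99% of all genes rose. The list also holds PPCK1 and PPCK2, kinases of PEP carboxylase, which rose with MT. GDPD1, a glycerophosphodiester phosphodiesterase, had 29.4 and 29.9 CPM in the control, 95.1 and 109.7 with IAA, and 158 and 148 with MT, in the same order of groups as SPX1. It rose by 1.79 ± 0.09 with IAA (adjusted p = 0.00356) and 2.37 ± 0.10 with MT (adjusted p = 0.00133). PECP1, a phosphatase of phosphoethanolamine and phosphocholine, had the largest fold of the list, 3.00 ± 0.23 with IAA (adjusted p = 0.0217) and 3.72 ± 0.23 with MT (adjusted p = 0.00185). The galactolipid synthase MGD3 rose by 2.76 ± 0.23 (adjusted p = 0.0217) and 2.85 ± 0.23 (adjusted p = 0.00338).

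The acid phosphatase PAP17 had 35.5 and 31.3 CPM in the control, 73.8 and 85.4 with IAA, and 131 and 132 with MT. It rose by 1.25 ± 0.10 (adjusted p = 0.0217) and 1.97 ± 0.10 (adjusted p = 0.00165). G3PP1, a glycerol-3-phosphate permease, rose by 1.06 ± 0.12 (adjusted p = 0.0303) and 1.53 ± 0.12 (adjusted p = 0.00259). PS2, a phosphatase, rose by 2.24 ± 0.24 with IAA (adjusted p = 0.028), and SQD1, an enzyme of sulfolipid synthesis, by 1.11 ± 0.09 with MT (adjusted p = 0.00302). GDPD1 and PAP17 overlap other genes on the opposite strand, so part of their counts could belong to those. A P1BS match lay within 1000 bases upstream of 10 of the 17 genes (58.8%) and within 300 bases of 6 (35.3%), against 20.3 and 6.5% of protein-coding genes.

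**Figure D5:**
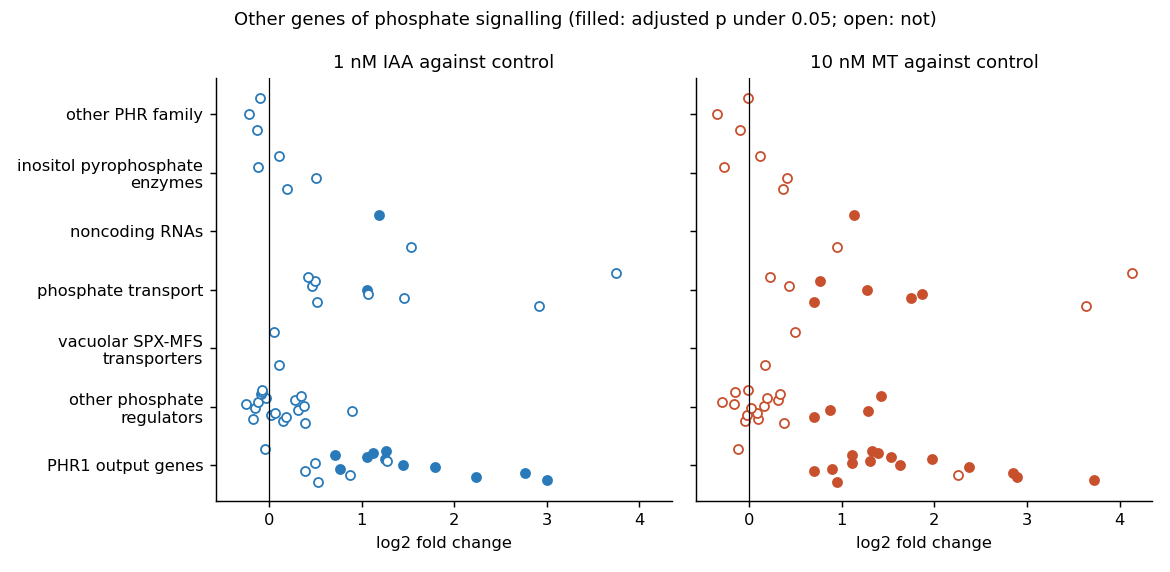
Log2 fold change of the tested genes of 7 phosphate lists with IAA (left) and MT (right) against control, filled where called at an adjusted p under 0.05. Called points lie to the right of 0 in both panels, and 11 and 15 of 17 PHR1 output genes are filled. PHT1;7, with 0 control counts, is not drawn.

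For the members whose SD of log2 CPM over the 6 libraries was above 0.5, the genes with the most similar profile were sought among the 18306 genes whose mean reached 2 CPM. Likeness was the root mean square difference of log2 CPM after centring each gene on its mean, and the 6 points share libraries and groups. For SPX1 (SD 1.23) the nearest were AT5G20790 (0.136), GDPD1 (0.137) and the organic cation transporter OCT1 (0.211). OCT1 had 1.12 and 1.39 CPM in the control, 4.15 and 6.16 with IAA, and 10.2 and 9.13 with MT, and so climbed in the same order of groups. Its control libraries lay below 2 CPM, so OCT1 reached that mean only through the treated libraries.

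For SPX3 (SD 1.6) the nearest were PP2-B13, a gene of the phloem protein 2 family (0.244), PECP1 (0.342) and MGD3 (0.352). PP2-B13 had 0.391 and 0.455 CPM in the control and reached the mean of 2 CPM only through the treated libraries. For NLA (SD 0.512) the nearest were MAKR6 (0.0724), MCCA, a subunit of methylcrotonyl-CoA carboxylase that takes part in leucine breakdown (0.0754), and AT4G36850 (0.0785). MCCA had 107 and 118 CPM in the control, 69.2 and 74.9 with IAA, and 55.7 and 54.2 with MT. The genes nearest to SPX1 and SPX3 included 3 of the PHR1 output list. Those nearest to NLA included 0 genes of the phosphate lists. These counts cannot set NLA apart, because it fell with MT and edgeR called 0 of 56 tested list genes lower with IAA or MT. The lists were chosen with results known, and the share of list genes among those nearest to other genes was not counted.

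The makeup of the samples was described with marker genes. Beside the counts below, 14.3% of all genes reached an unadjusted p under 0.05 with IAA, 25.2% with MT and 17.4% in MT against IAA. DESeq2 called 4.09, 14.2 and 6.32% of all genes in the same order, and edgeR 0.332, 7.65 and 0.173%. The 5 root hair markers summed to 211 and 164 CPM in the control, 241 and 219 with IAA, and 162 and 160.0 with MT, and the 5 endodermis markers to 89.1 and 61.8, 84.8 and 79.7, and 54.0 and 50.8 CPM. Both sums were lowest with MT, and none of these markers was at 0 in any library. Of the endodermis markers, CASP5, which builds the Casparian strip, fell with MT by 1.27 ± 0.21 (adjusted p = 0.0182). AT5G15300, with 377 counts over all libraries, overlaps CASP5 on the other strand. CASP5 had 288, 320 and 122 counts in the control, IAA and MT groups, and part of these could belong to AT5G15300. With MT an unadjusted p under 0.05 was reached by 3 of 5 endodermis markers, 2 of them called lower by DESeq2 (median -0.54), and with IAA there were 0 by either (median 0.15). Of the root hair markers edgeR and DESeq2 called 0 of 5 in either comparison, with 1 at an unadjusted p under 0.05 in each (medians 0.31 with IAA and -0.28 with MT). In MT against IAA all 5 root hair and all 5 endodermis markers had an unadjusted p under 0.05, with medians of -0.60 and -0.66. DESeq2 called 3 lower in each list there, and edgeR 0. Root stem cell and stele markers summed to 67.4 to 72.0 CPM in all libraries, mostly from SCR and SHR. Of these 4, edgeR and DESeq2 called 0 in either comparison. At an unadjusted p under 0.05 there were 2 with IAA (median 0.4) and 1 with MT (median 0.31). With IAA, PLT1 was at 0.94 ± 0.29 and PLT2 at 0.78 ± 0.28, while SHR was at -0.12 ± 0.12 and SCR at 0.02 ± 0.08. With MT, PLT1 was at 0.61 ± 0.29, PLT2 at 0.78 ± 0.28, SHR at -0.15 ± 0.12 and SCR at 0.01 ± 0.08. The 5 green tissue markers summed to 26161 and 27341 CPM in the control, 22614 and 21499.9 with IAA, and 28902 and 26773 with MT. With MT these 5 went both ways (median 0.02). LHCB1.3 (0.80 ± 0.12, adjusted p = 0.0127) and RBCS3B (0.92 ± 0.09, adjusted p = 0.00422) rose, while RCA was at -0.38 ± 0.12 (adjusted p = 0.102) and RBCS1A at -0.19 ± 0.06 (adjusted p = 0.128), and DESeq2 called 2 higher and 1 lower. With IAA edgeR called 0 of 5, with 2 at an unadjusted p under 0.05, and DESeq2 called 2 lower (median -0.33). In MT against IAA edgeR called 1 of 5, RBCS3B, higher, and DESeq2 2 higher (median 0.35). The part of these differences in the changes of the 8 genes was not tested.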

How the data were processed

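Transcripts were measured by RNA sequencing in 6 libraries of Arabidopsis seedlings, grouped by their labels. The deposited table holds raw read counts by gene. Per the submitters' processing notes the tools were Bowtie2 2.2.3, TopHat2 2.0.12, HTSeq 0.6.1 and DESeq 1.18.0. Build, annotation and strand setting: not given in the sources used here. Of 24267 genes, 23606 matched a TAIR10.1 locus tag and 351 were named as new genes, and all entered library sizes.

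The counts of all 6 libraries were fitted together in edgeR 4.0.16 (R 4.3.3), after filterByExpr had kept 21355 genes and TMM had set library sizes. The quasi-likelihood test had only the group in its design (3 residual and 3.83 prior degrees of freedom, common biological coefficient of variation 16.1%). The SE is the log2 fold change over the square root of F. DESeq2 was an alternative. The code was tested on simulated data.

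The 8 genes, the lists and the tests were chosen with earlier results of these data known. Named were the 8 genes, up to 6 called genes of each list per comparison (those with the smallest p), IPS1 and AT4, and the 3 genes most like each member with an SD of log2 CPM above 0.5. Markers were named after their values were seen. Log2 CPM for likeness used a prior count of 2. P1BS was searched by exact letters in TAIR10.1 from RefSeq. MicroRNA sites were searched there with at most 4 unpaired bases. The mimic sites were the best matches around a bulge of 3 bases.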

Additional observations from a re-analysis of the deposited data

How the results depend on the processing

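With 2 libraries a group and 3 residual degrees of freedom, the number of calls moved with the fit, and the cause was not tested. SPX1 was called with IAA and MT, and SPX2, SPX3 and NLA with MT, in all 13 alternatives (other scaling factors, no filter on low counts, robust empirical Bayes, only the 4 libraries compared, DESeq2, the replicate block, and leaving out each of 6 libraries).

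With IAA, DESeq2 called 4 of the 8 genes, 20 of the phosphate lists and 781 of all genes, in place of 2, 13 and 71. Robust empirical Bayes called 3 of the 8 genes, adding SPX2, and 130 of all genes. The fit of the 4 libraries compared called 125 of all genes. Leaving out a library gave 1 to 2 of the 8 genes, 1 to 13 of the lists (1 without control replicate 2) and 15 to 113 of all genes. With MT, DESeq2 called 2905 of all genes in place of 1633. Counting only list genes with at least 10 counts in each control library, chosen after seeing the data, gave 13 with IAA and 25 with MT in place of 13 and 26. Leaving out a library gave 4 to 5 of the 8 genes, 17 to 23 of the lists and 493 to 1300 of all genes. In MT against IAA, DESeq2 called 2 of the 8 genes, 11 of the lists and 1207 of all genes, in place of 0, 0 and 37. With no filter these were 0, 1 and 76, with robust empirical Bayes 0, 3 and 142, and 6 of all genes with the 4 libraries compared. Leaving out a library gave 0 of the 8 genes, 0 to 4 of the lists and 6 to 340 of all genes, the highest without MT replicate 2.

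Differences near 0 reversed for SPX4 with MT (0.001 without control replicate 2 and 0.009 without MT replicate 2, the range over libraries left out being -0.17 to 0.009) and for PHR1 in MT against IAA (0.062 without IAA replicate 2 and 0.002 without MT replicate 1, range -0.075 to 0.062). The titles give each library a replicate number and do not say whether same-numbered libraries were paired. Deviations of same-numbered libraries correlated with r of 0.00738 to 0.079 across genes. Whether such libraries share a batch was not tested. With the replicate block, 2 of the 8 genes were called with IAA, 5 with MT (the call of PHL1 was lost, adjusted p = 0.0522) and 0 in MT against IAA, and 48, 1325 and 12 of all genes.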
